A study of Mus musculus with 3 samples.

Results

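The 10 genes Cd36, Marco, Msr1, Cd163, Axl, Mertk, Timd4, Apoe, Lpl and Abca1 encode receptors and lipid-handling proteins with which phagocytes take up lipoproteins, debris and dead cells. They were matched by gene symbol, and the set was chosen with earlier results of these data known. All 10 were found among the 32285 genes of the count matrices. Their counts were followed in macrophages, Kupffer cells, monocytes, dendritic cells and endothelial cells from mouse liver tumours. There were 3 libraries, 1 for each of DU101, DU102 and control. All came from live, CD45-positive cells sorted from tumours of C57BL6 MYC-ON mice, in which the Myc oncogene is switched on, at 18 weeks of age. CD45 is the surface protein of blood-derived cells, so the sort selects immune cells. The labels name DU101 and DU102 without saying what they are, at which dose or for how long they were given, or how many mice a library pools.

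Scavenger receptors bind modified lipoproteins, microbes and cell debris, and several of them mark the resident macrophages that line the liver's blood channels. Efferocytosis is the clearance of dying cells, which expose phosphatidylserine on their surface; TIMD4 binds this lipid directly, whereas AXL and MERTK are tyrosine kinases that bind it through bridging proteins. The cholesterol and fatty acids taken up with such cargo are then stored, burnt or handed to lipoproteins, in which APOE, LPL and ABCA1 take part. The tumour-bearing liver holds both resident Kupffer cells and macrophages that arise from monocytes.

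Each cell's RNA was counted in unique molecular identifiers (UMIs), tags that count an RNA molecule once however often it was read. The libraries held 106604935 UMIs in DU101, 96817875 in DU102 and 91013198 in control. After filters, 13799 cells of DU101, 11461 of DU102 and 10154 of control were kept, with medians of 4832, 5091 and 6336 UMIs per cell. Cells were placed in classes by marker genes that include none of the 10 genes, and 4378 cells of DU101, 3067 of DU102 and 4141 of control fell into the 9 classes described here. The UMIs of a gene were summed over the cells of a class and library and are given as counts per 1000000 UMIs of those cells (CPM), with exact Poisson 95% intervals that cover counting error only. With 1 library in each group there is no replicate check and no test, and a difference between libraries cannot be told apart from a difference between animals or preparations. Cells with RNA of Xist, a transcript of female cells, made up 0.138% of DU101, 0.0698% of DU102 and 56.0% of control, so control mixed cells of both sexes. Several results move when only cells that had Y-linked RNA but lacked Xist (below, Y-linked cells) are counted. Values in Y-linked cells are therefore given beside these results. A cell needs at least 1 UMI of a Y-linked gene to enter, so this step may also choose deeper cells, which was not tested. Of 570 control Kupffer cells, 63 were Y-linked and 99 had Xist and no Y-linked RNA, so most were in neither group. Pairs of libraries shared 37 to 57 cell barcodes.

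The gated classes were of unequal size and depth. Kupffer cells numbered 365 in DU101, 274 in DU102 and 570 in control, at medians of 1992, 1676 and 2516.5 UMIs. Macrophages numbered 930 in DU101, 647 in DU102 and 976 in control. Classical monocytes numbered 1370 in DU101, 992 in DU102 and 1057 in control, and patrolling monocytes numbered 528, 478 and 461 in the same order. Levels of the marker genes themselves follow from the gates and were not used to check them. The endothelial gate of 132 DU101, 101 DU102 and 178 control cells had 54.5 to 113 CPM of Ptprc, the gene of CD45, which was no marker. This was the lowest Ptprc level of the 9 classes, although the cells had come through a CD45 sort. The shared expression cluster with the most macrophages held 63.1% of them in DU101, 44.7% in DU102 and 50.6% in control. Another held 3.76% in DU101, 32.3% in DU102 and 24.9% in control. In that other cluster Msr1 did not pass 3.32 CPM and Apoe stood at 1208, 1243 and 1453 CPM. Axl was at 128, 166 and 151 CPM there, in the same order. The macrophage gate thus differed in make-up between libraries.

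The scavenger receptors differed in which class carried them. Cd36, a receptor for fatty acids and oxidised lipoproteins, was highest in endothelial cells, with 868 CPM in DU101, 661 CPM in DU102 and 739 CPM in control. Kupffer cells followed at 179, 157 and 172 CPM, and overlapped patrolling monocytes at 123, 158 and 135 CPM in the same order of libraries. Cd36 was also present in cDC1, the dendritic cells that present antigen of dead cells, at 87.2 CPM in DU101, 123 CPM in DU102 and 94.7 CPM in control. In classical monocytes it did not pass 9.41 CPM, and in T cells, which stand here for background, 2.53 CPM. Of all 7782 Cd36 UMIs in kept cells, 33.0% lay in endothelial cells.

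Marco, a collagen-containing receptor for particles and bacteria, was a Kupffer cell gene. It reached 168 CPM in DU101 Kupffer cells, 69.8 CPM in DU102 and 98.9 CPM in control. No other class described here passed 23.0 CPM. Msr1, the class A scavenger receptor for modified lipoproteins, was spread more widely. Its level was 167 CPM in DU101, 243 CPM in DU102 and 250 CPM in control Kupffer cells, 98.9, 164 and 151 CPM in endothelial cells, and 92.4, 117 and 102 CPM in macrophages. Endothelial cells, macrophages and classical monocytes overlapped in their Msr1 ranges, and dendritic cells stood at 3.10 CPM or less. Cd163, the receptor that clears haemoglobin bound to haptoglobin, was near the limit of detection: 17 UMIs in DU101, 17 in DU102 and 57 in control Kupffer cells gave 12.6, 18.2 and 21.4 CPM. Its whole count was 313 UMIs, so differences in Cd163 were mostly not detectable at this depth.

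The 3 genes of dead-cell clearance were highest in Kupffer cells and differed in which class came next. Axl was at 339 CPM in DU101, 480 CPM in DU102 and 446 CPM in control Kupffer cells, and at 152, 221 and 187 CPM in macrophages. The ranges of these 2 classes did not overlap. Mature dendritic cells, the activated form that carries antigen to lymph nodes, came next at 29.5 to 55.6 CPM, and overlapped cDC2 and patrolling monocytes. Mertk stood at 150 CPM in DU101, 166 CPM in DU102 and 164 CPM in control Kupffer cells. It was 73.7, 91.6 and 75.7 CPM in endothelial cells and 66.8, 55.3 and 69.6 CPM in macrophages. The Mertk locus overlaps an antisense gene and a small gene on its own strand, and their reads may not be separable. Timd4, a marker of Kupffer cells of embryonic origin, was at 43.0 CPM in DU101, 20.4 CPM in DU102 and 43.3 CPM in control Kupffer cells and at no more than 10.1 CPM in any other class described here. Kupffer cells held 58.7% of its 327 UMIs.

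Among the lipid genes, Apoe, the gene of an apolipoprotein that helps carry cholesterol away from macrophages, was by far the most abundant. In Kupffer cells it made up 25424 CPM in DU101, 32760 CPM in DU102 and 27960 CPM in control, and in macrophages 16226, 14028 and 13238 CPM. T cells had 336 CPM in DU101, 294 CPM in DU102 and 326 CPM in control. The 117 to 194 CPM of cDC1 and cDC2 lay below these T cell values and were read as background, not as expression. Lpl, the lipase that releases fatty acids from lipoproteins, was at 600 CPM in DU101, 933 CPM in DU102 and 633 CPM in control Kupffer cells, then at 198, 292 and 253 CPM in macrophages. Abca1, the pump that loads cholesterol onto lipoproteins, was at 369 CPM in DU101, 514 CPM in DU102 and 503 CPM in control Kupffer cells. Endothelial cells had 152, 167 and 223 CPM of Abca1 and macrophages 130, 158 and 131 CPM. B cells, with 60.6, 83.3 and 81.9 CPM, stood above T cells at 8.45, 11 and 9.97 CPM.

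**Figure D1:**
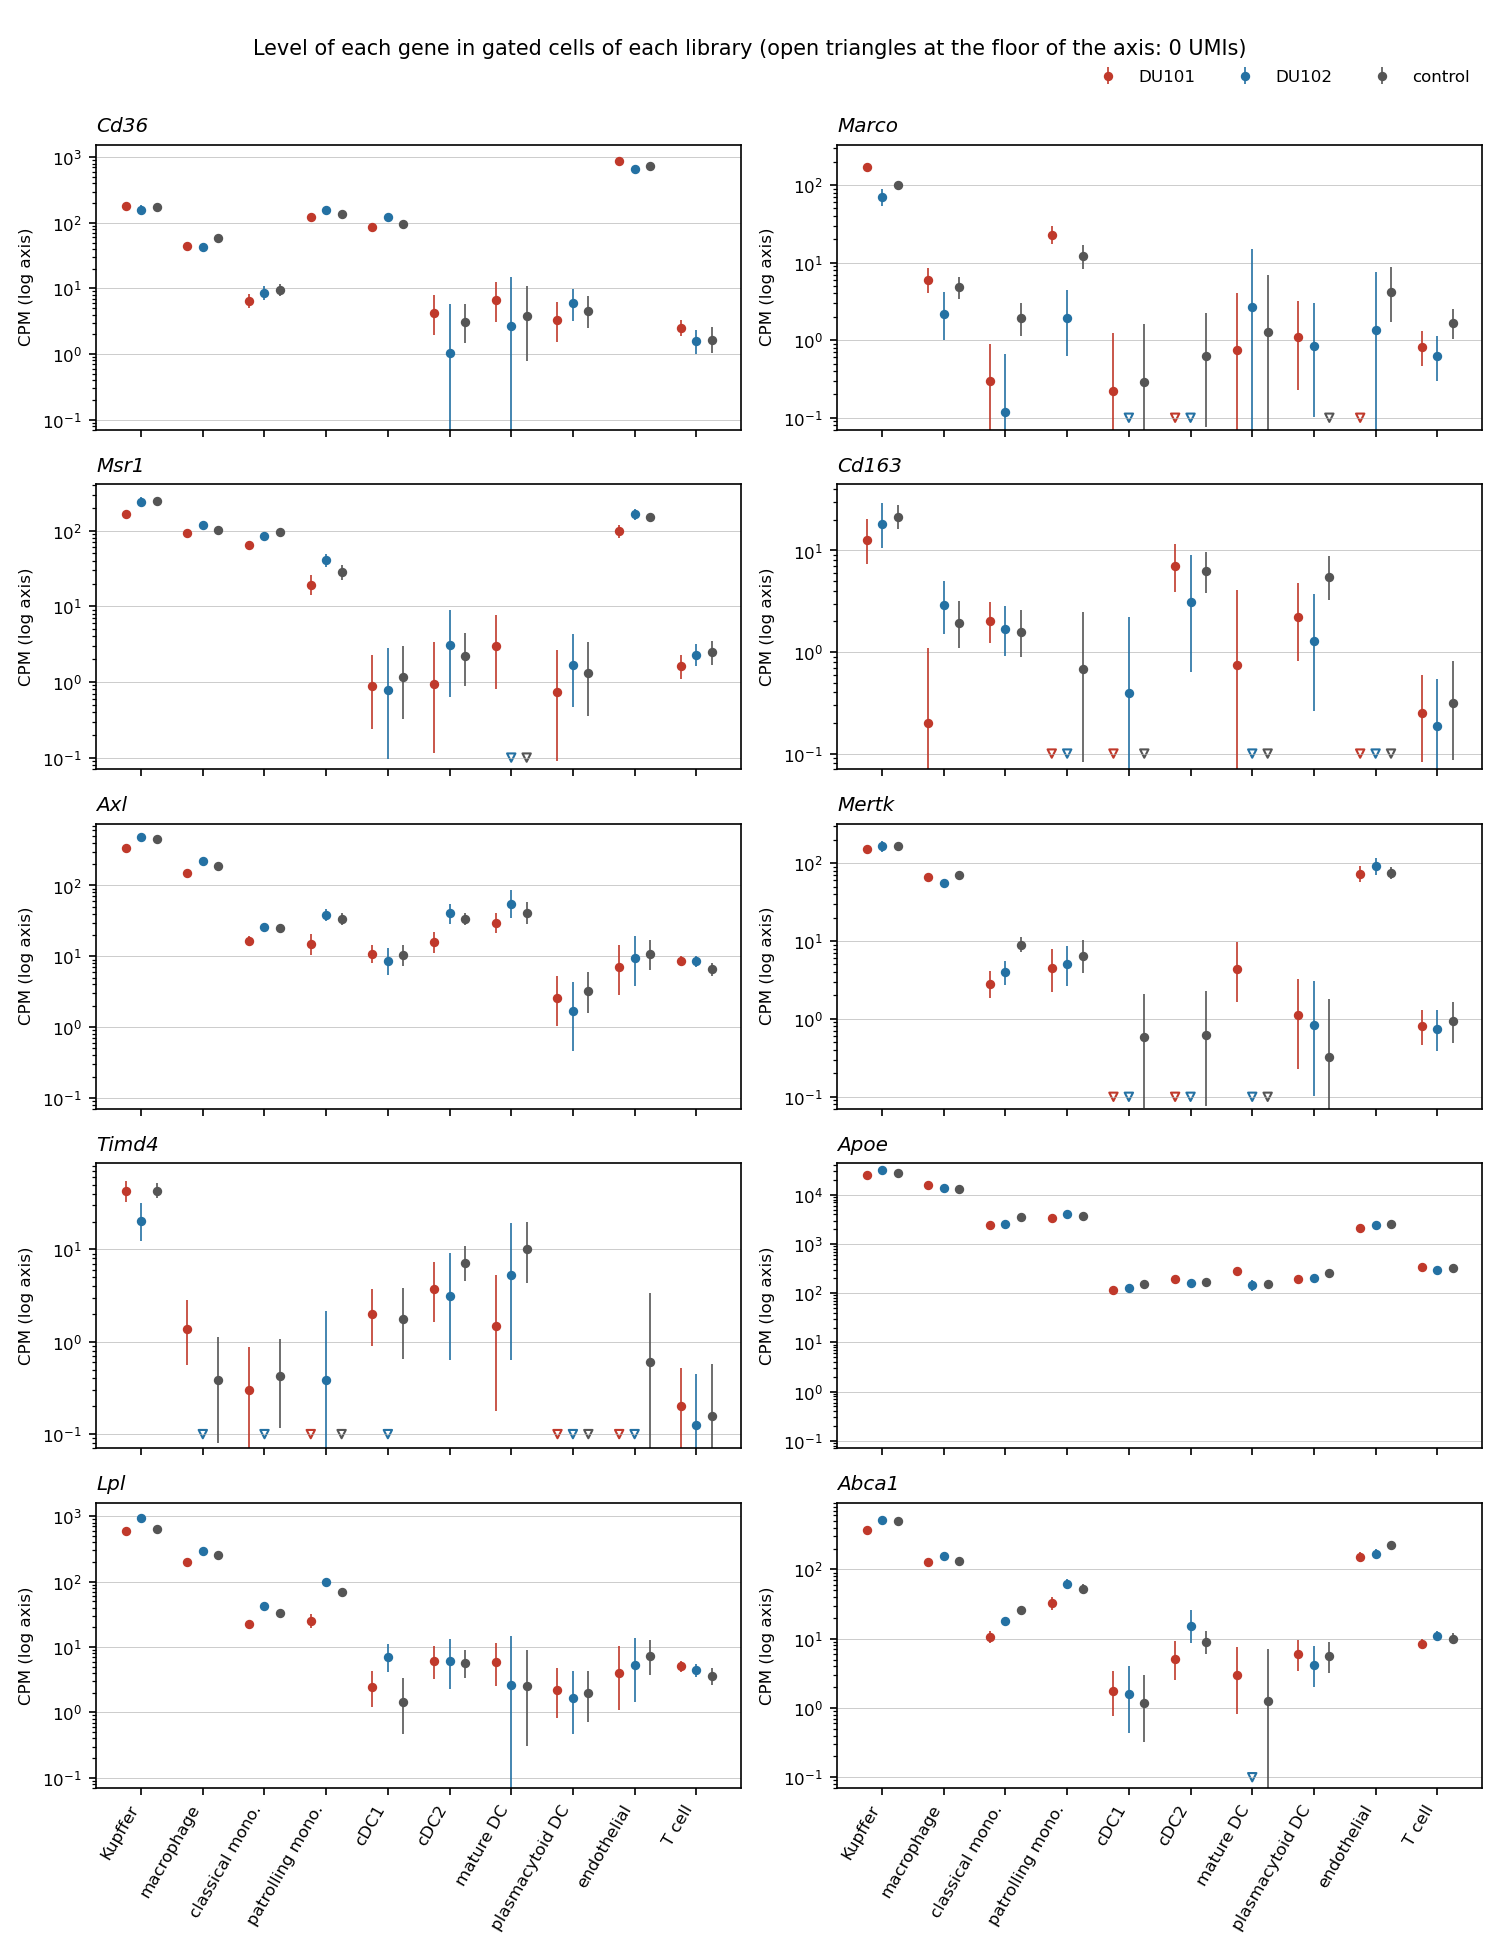
Level of each of the 10 genes in CPM on a log axis, by cell class, with DU101, DU102 and control side by side and exact Poisson 95% intervals as bars. Kupffer cells stand highest for every gene but Cd36, which is highest in endothelial cells at 661 to 868 CPM.

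Counted per cell, the same genes were shared unevenly. To compare cells of unequal depth, each was thinned to 2000 UMIs and shallower cells were left out, 184 in DU101, 156 in DU102 and 240 in control for Kupffer cells. Lpl was then found in 47.5% of DU101, 61.9% of DU102 and 47.6% of control Kupffer cells. Axl was found in 41.4% of DU101 (95% Clopper-Pearson interval 34.2 to 49.0), 61.0% of DU102 (51.6 to 69.9) and 57.9% of control Kupffer cells (52.3 to 63.3). The share of T cells with an Axl UMI at that depth was 1.45%, 1.56% and 1.37% in the same order. Apoe aside, and thinned to 1000 UMIs, 20.1% of DU101, 28.7% of DU102 and 28.1% of control Kupffer cells showed 3 or more of the other 9 genes. Timd4 was seen in 28.6% of DU101, 28.6% of DU102 and 34.2% of control Kupffer cells with Marco. Among Kupffer cells without Marco it was seen in 3.86%, 1.54% and 4.70%. These shares rest on 14, 7 and 38 cells with Marco.

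The treated libraries were then set against control in the 8 classes that had at least 50 cells in every library; mature dendritic cells, with 42 in DU102, were left out. A gene was called higher or lower by size in a class where the ratio of CPM was 1.5-fold or more, its exact 95% interval lay on that side of 1, and both libraries together held at least 30 UMIs. Of 80 gene and class pairs, 50 reached that count for DU101 and control. Of these, 2 were higher and 9 lower in DU101, with a median log2 ratio of -0.32. The same rule over all genes called 4.0% of gene and class pairs higher and 5.89% lower, so the 9 of 50 lower stood above the background share and the 2 higher did not. For DU102 and control, 45 pairs were counted, none was higher and 4 were lower, with a median of 0.02. The background there was 3.94% higher and 3.15% lower. Both comparisons use the same control library.

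**Figure D2:**
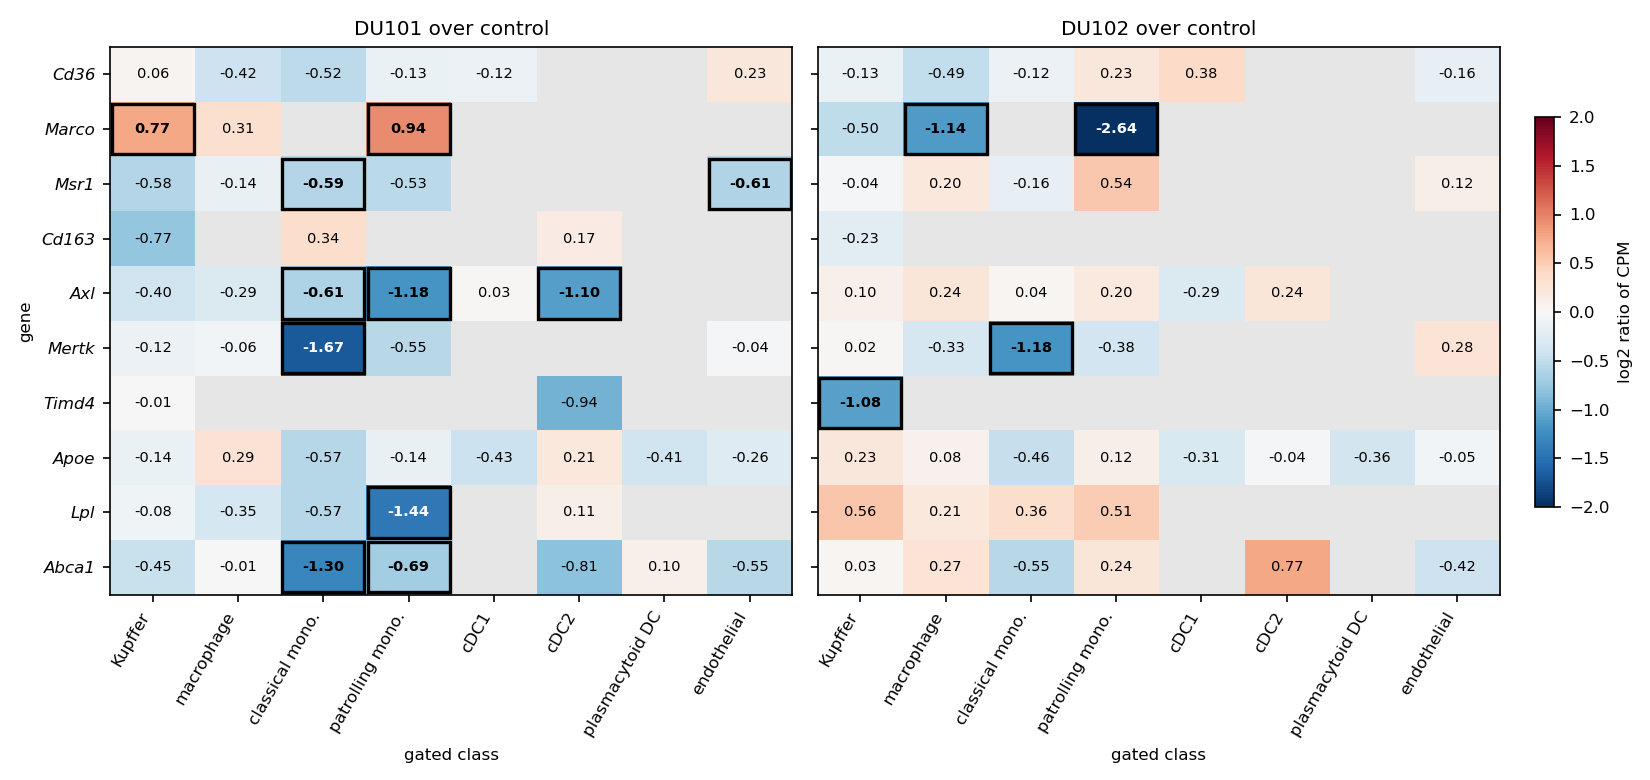
Log2 ratio of CPM for each gene (rows) in each cell class (columns), in panels for DU101 over control and DU102 over control, with black frames around called pairs and grey where the libraries held fewer than 30 UMIs. Lower values of DU101 gather in the monocyte columns, where 7 of its 9 lower calls lie.

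Classical monocytes, the Ly6c2-high cells that feed tissue macrophages, had less of 4 of the 10 genes in DU101. The receptor kinase gene Mertk had 28 UMIs in DU101, 33 in DU102 and 85 in control, or 2.82, 3.96 and 8.99 CPM. Its log2 ratio to control was -1.67 for DU101 (interval -2.34 to -1.04) and -1.18 for DU102 (-1.81 to -0.59). Mertk was thus lower by size in both treated libraries. The cholesterol pump gene Abca1 stood at 10.6 CPM in DU101, 17.8 CPM in DU102 and 26.0 CPM in control, a log2 ratio of -1.30 (-1.64 to -0.96) for DU101. Axl stood at 16.4 CPM in DU101, 25.7 CPM in DU102 and 25.1 CPM in control, and its log2 ratio for DU101 was -0.61 (-0.91 to -0.32). Msr1 was at 63.6 CPM in DU101, 85.7 CPM in DU102 and 95.8 CPM in control, with a log2 ratio of -0.59 (-0.74 to -0.44) for DU101. Only Mertk was called in DU102. The background of lower calls in this class was 5.00% of genes for DU101 and 2.99% for DU102. Just under the size limit lay Apoe, at 2404 CPM in DU101 and 3580 CPM in control, and Lpl, at 22.4 and 33.1 CPM in the same order, both with a log2 ratio of -0.57.

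The monocyte levels were low, and cells that should lack these genes set a floor beneath them. T cells had 8.45 CPM of Abca1 in DU101, 11 CPM in DU102 and 9.97 CPM in control, close to the 10.6 CPM of DU101 classical monocytes. Thinned to 2000 UMIs, Abca1 was found in 2.12% of DU101, 3.44% of DU102 and 4.6% of control classical monocytes, and in 1.56%, 2.18% and 3.02% of T cells. The DU101 monocyte share, with an interval of 1.42 to 3.06, thus overlapped that of T cells, at 1.18 to 2.02. Over the whole gate Mertk stood above its T cell share in each library, at 0.531% of DU101, 0.644% of DU102 and 2.20% of control classical monocytes, against 0.0821%, 0.234% and 0.228% of T cells. Median depths were 6372, 7901 and 8409 UMIs in classical monocytes and 4081, 4833 and 5672.5 UMIs in T cells. The 7 macrophage markers summed to 497 CPM in DU101, 459 CPM in DU102 and 602 CPM in control classical monocytes, with none of the 7 at 0 in any library. The 7 hepatocyte or tumour cell markers summed to 181 CPM in DU101, 286 CPM in DU102 and 278 CPM in control there, also with none at 0. The part of either list in the differences was not tested.

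Within the largest expression cluster of this gate, with 958 DU101, 723 DU102 and 825 control cells, Mertk was at 1.71 CPM in DU101, 0.704 CPM in DU102 and 5.26 CPM in control. These values rest on 10 of the 28 DU101, 4 of the 33 DU102 and 36 of the 85 control Mertk UMIs of the gate, so most of its Mertk lay outside that cluster, and the DU102 level there was no higher than the 0.746 CPM of DU102 T cells. The DU101 ratio there was -1.62 on the log2 scale for Mertk and -0.65 for Abca1. For Axl it was -0.42 (-0.78 to -0.07) and for Msr1 -0.16, both under the size limit, so neither was called within that cluster. This alternative was chosen after seeing the data. With classes taken from joint expression clusters in place of gates, Mertk stood at -0.86 and Abca1 at -0.52, Axl at -0.07 and Msr1 at -0.15 for DU101, and only Mertk kept its call.

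The 250 bases before the transcription start are shown for Mertk, Abca1 and Axl, which were called lower over the whole gate of DU101 classical monocytes. With joint clusters only Mertk kept that call. They are from RefSeq, build GRCm38.p6, and read 5′ to 3′ on the strand of the gene. Capitals mark the motif GAGGAA, the core bound by the myeloid factor PU.1 (written TTCCTC where it lies on the other strand), and the TATA box TATAAA.
Mertk: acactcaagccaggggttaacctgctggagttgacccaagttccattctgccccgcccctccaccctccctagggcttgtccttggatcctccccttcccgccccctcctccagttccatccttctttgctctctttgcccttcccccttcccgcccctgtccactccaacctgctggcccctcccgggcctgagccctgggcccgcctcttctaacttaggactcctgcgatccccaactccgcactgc
Abca1: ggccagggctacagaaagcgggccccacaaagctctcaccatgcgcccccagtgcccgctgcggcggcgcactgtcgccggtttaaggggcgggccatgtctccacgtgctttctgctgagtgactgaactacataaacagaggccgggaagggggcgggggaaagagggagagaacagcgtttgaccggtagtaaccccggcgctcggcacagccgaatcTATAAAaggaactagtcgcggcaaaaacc
Axl: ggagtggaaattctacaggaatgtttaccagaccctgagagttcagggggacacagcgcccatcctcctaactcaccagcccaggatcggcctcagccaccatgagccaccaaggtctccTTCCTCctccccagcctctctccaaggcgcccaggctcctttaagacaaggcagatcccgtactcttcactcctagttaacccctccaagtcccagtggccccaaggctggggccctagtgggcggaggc
The Mertk stretch is chr2:128698665-128698914 on the plus strand, the Abca1 stretch chr4:53159896-53160145 on the minus strand and the Axl stretch chr7:25788734-25788983 on the minus strand. In the GENCODE annotation of the same build these genes are protein coding and lie at chr2:128698956-128802894, chr4:53030787-53159895 and chr7:25757273-25788705. Both strands were searched for 5 motifs, the 2 above, the AP-1 site TGANTCA, the nuclear receptor motif AGGTCA and the C/EBP site TTGCNNAA. Axl held GAGGAA at -130, as did 23.3% of all 32851 promoters of this length. Abca1 held TATAAA at -29, found in 12.4% of promoters. Mertk held none of the 5, and the 3 genes shared no motif of those searched. Promoters were found for 8 of the 10 genes; Msr1 and Lpl had no entry.

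Patrolling monocytes, which crawl along vessel walls, had less Lpl, Axl and Abca1 in DU101. Lpl had 63 UMIs in DU101, 254 in DU102 and 201 in control, or 25.4, 97.7 and 68.9 CPM. DU101 was thus the lowest and DU102 the highest, with log2 ratios to control of -1.44 (-1.87 to -1.02) and 0.51. Axl stood at 14.9 CPM in DU101, 38.9 CPM in DU102 and 33.9 CPM in control, a log2 ratio of -1.18 (-1.77 to -0.62) for DU101. Abca1 stood at 32.3 CPM in DU101, 61.6 CPM in DU102 and 52.1 CPM in control, a log2 ratio of -0.69 (-1.10 to -0.29) for DU101. In each of the 3 genes DU101 was below both other libraries, whose own difference was under the size limit. Axl lost its call within the main cluster of the gate, which held 79.9% of DU101, 79.3% of DU102 and 68.5% of control cells. Its log2 ratio ran from -2.58 to -0.86 over 15 alternative settings. Abca1 lost its call with a 5% mitochondrial limit and with a 2-fold limit. The background for DU101 in this class was 5.39% of genes lower. The share of cells with Lpl at 2000 UMIs followed the CPM: 4.81% of DU101, 11.6% of DU102 and 9.03% of control patrolling monocytes, against 0.93%, 0.780% and 1.08% of T cells. The 7 macrophage markers summed to 552 CPM in DU101, 706 CPM in DU102 and 768 CPM in control patrolling monocytes, with none at 0. The 7 hepatocyte or tumour cell markers stood in the same order as Lpl, at 271 CPM in DU101, 566 CPM in DU102 and 421 CPM in control, with none at 0. Hepatocytes or tumour cells themselves had 31.2 CPM of Lpl in DU101, 23.7 CPM in DU102 and 16.1 CPM in control. The part of either list in the result was not tested. The 6 Kupffer markers summed to 36.8 CPM in DU101, 30.01 CPM in DU102 and 32.9 CPM in control there.

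**Figure D3:**
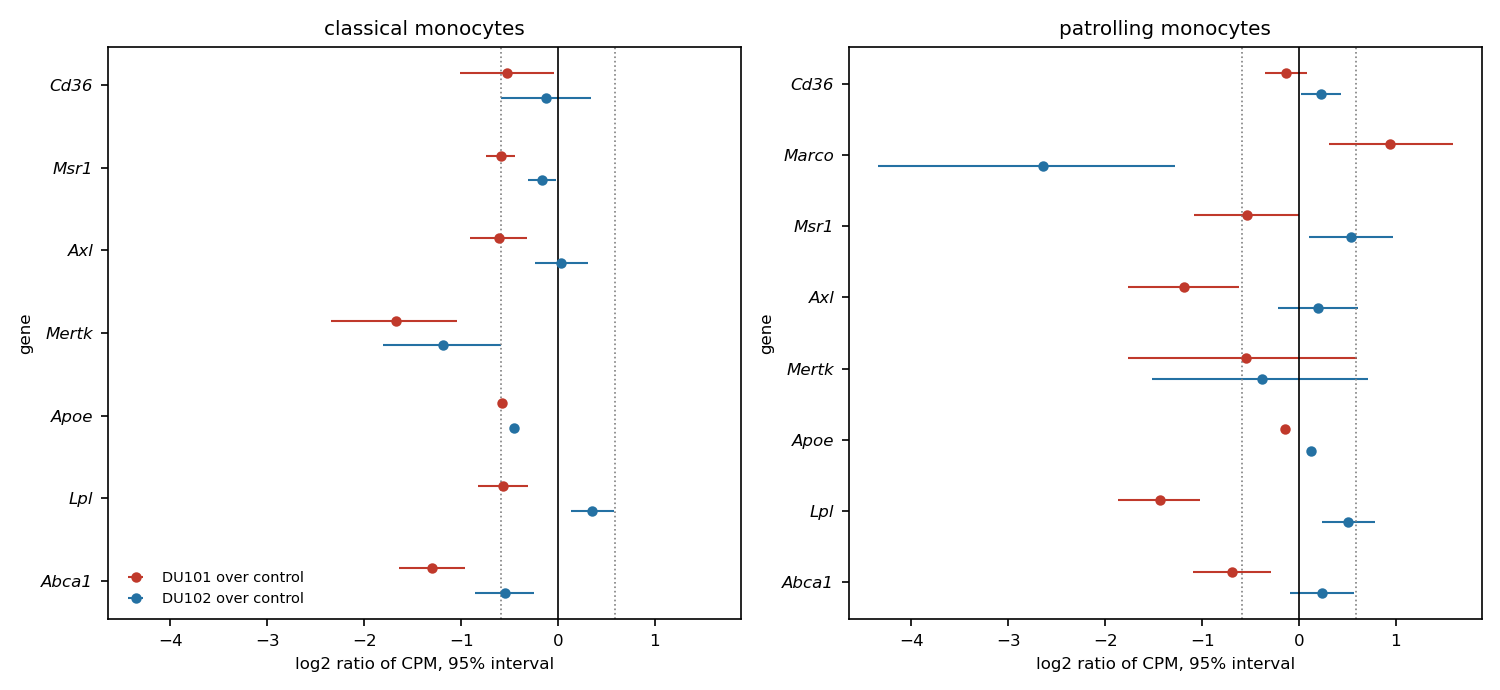
Log2 ratio of CPM to control with exact 95% intervals for the genes counted in both comparisons, in classical and patrolling monocytes, for DU101 and DU102; dotted lines mark the 1.5-fold limit. In patrolling monocytes the Lpl points lie on opposite sides of 0, at -1.44 for DU101 and 0.51 for DU102.

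Control monocytes were not uniform. In control, patrolling monocytes with Xist and no Y-linked RNA numbered 307 and Y-linked cells 57. The Xist cells had 48.8 CPM of Lpl, 26.7 CPM of Axl and 34.2 CPM of Abca1, and the Y-linked cells 139, 64.7 and 108 CPM. With Y-linked cells alone, Lpl in patrolling monocytes was 21.6 CPM in DU101, 92.2 CPM in DU102 and 139 CPM in control, so DU102 also lay below control and the DU101 log2 ratio grew to -2.69. Over the same cells Axl reached -2.58 and Abca1 -1.94 for DU101. Against control Xist cells the gap was narrower: Abca1, at 28.1 CPM in DU101 Y-linked cells, overlapped their 34.2 CPM in its interval. In classical monocytes the result of Axl turned: its 32.6 CPM in control Xist cells stood against 13.2 CPM in control Y-linked cells, and DU101 Y-linked cells had 14.6 CPM, a log2 ratio of 0.14. Mertk kept its direction at 3.03 CPM in DU101, 3.59 CPM in DU102 and 10.2 CPM in control Y-linked classical monocytes. Abca1 did so too, at 10.7, 14.7 and 24.6 CPM in the same order. Whether control cells with Xist and with Y-linked RNA came from different animals is not given, and sex and animal cannot be told apart.

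**Figure D4:**
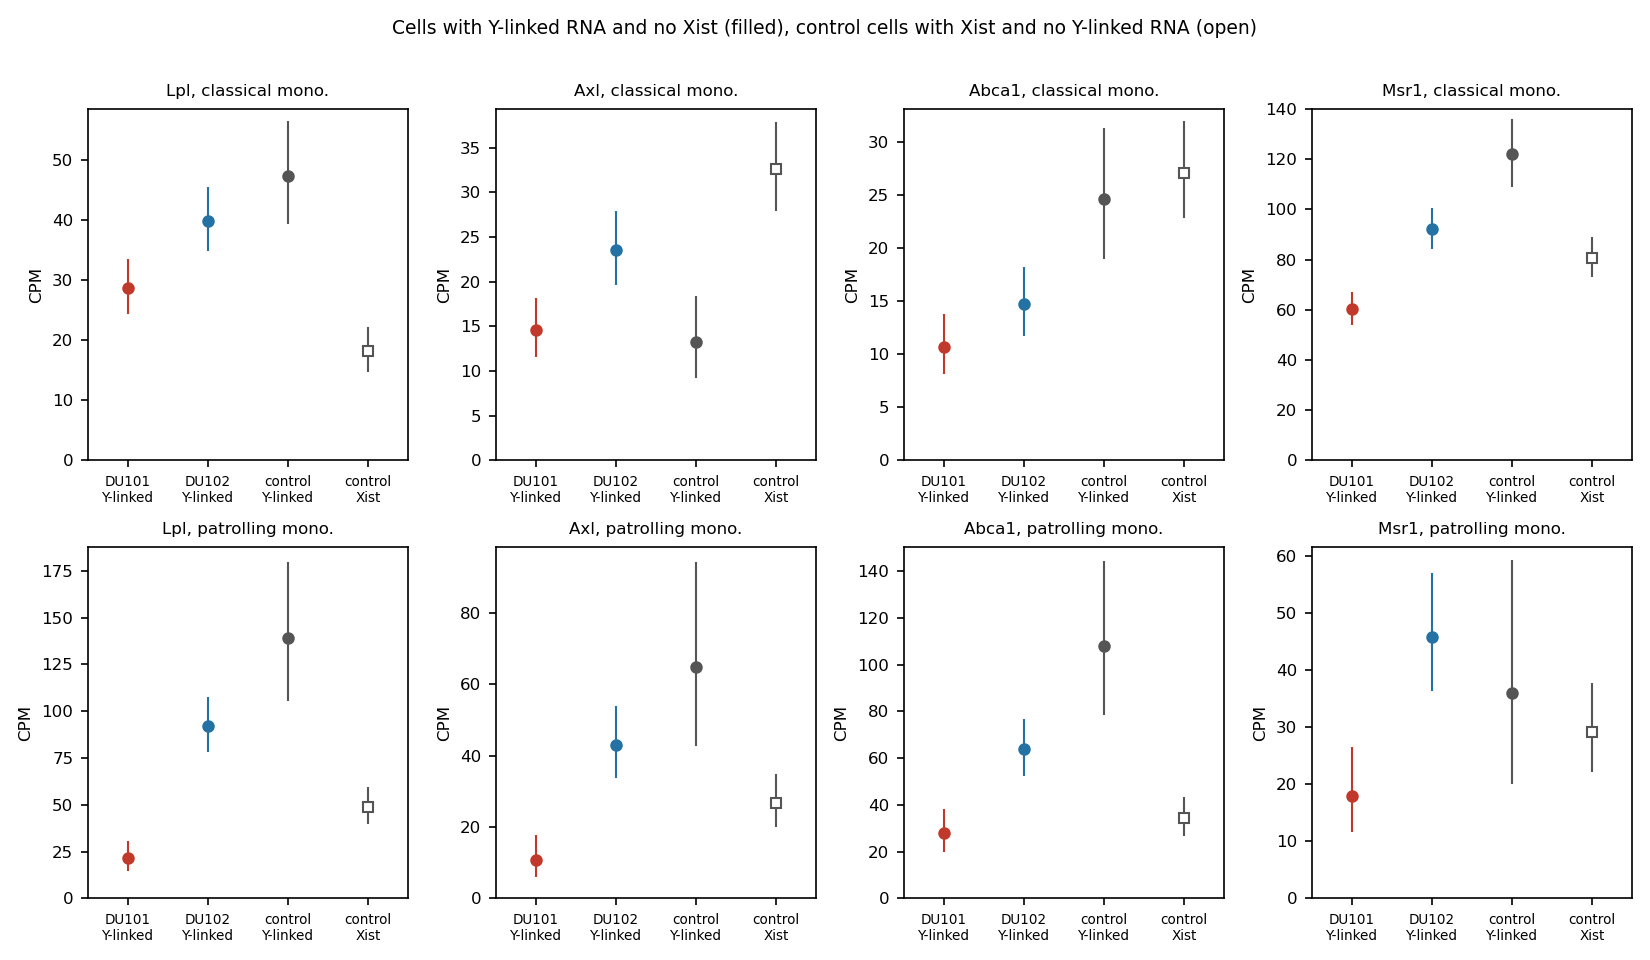
CPM with exact Poisson 95% intervals in Y-linked cells of DU101, DU102 and control (filled) and in control cells with Xist and no Y-linked RNA (open). The 2 kinds of control cell differ as much as treated and control libraries do for several genes, such as Lpl in patrolling monocytes at 139 CPM in Y-linked and 48.8 CPM in Xist cells.

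In Kupffer cells 1 of the 10 genes was called in each treated library. Marco was higher by size in DU101, with 227 UMIs against 263 in control, or 168 against 98.9 CPM, and a log2 ratio of 0.77 (0.50 to 1.03). The background in this class was 5.27% of genes higher and 4.70% lower. However, 77 of the 227 DU101 UMIs, 33.9%, lay in 1 cell of 35159 UMIs that fell in an expression cluster of mostly stellate cells or fibroblasts. Without the cell richest in Marco in each library, an alternative chosen after seeing the data, Marco was at 114 CPM in DU101, 48.3 CPM in DU102 and 90.4 CPM in control, and DU101 was no longer called. Cells with a Marco UMI numbered 38 of 365 in DU101, 21 of 274 in DU102 and 70 of 570 in control. At 2000 UMIs the share with Marco was 6.63% in DU101, 2.54% in DU102 and 9.09% in control, an order that differs from that of the CPM, so no order was read from either. Within the main Kupffer cluster Marco was at 179 CPM in DU101, 132 CPM in DU102 and 174 CPM in control.

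Timd4 was lower by size in DU102 Kupffer cells, with 19 UMIs against 115 in control, or 20.4 against 43.3 CPM, and a log2 ratio of -1.08 (-1.87 to -0.38). The background was 3.56% of genes higher and 3.11% lower. In DU101 it stood at 43.0 CPM. In Y-linked cells alone Timd4 rested on 6 UMIs in DU102 and 6 in control, 11.6 against 10.6 CPM, and the difference turned. Lpl in DU102 Kupffer cells was above control, at 933 against 633 CPM, with a log2 ratio of 0.56 that stayed under the size limit. Lpl passed that limit with at most 5% mitochondrial UMIs, with joint clusters, with cells weighted alike and within the main Kupffer cluster. In the main cluster it was at 1267 against 729 CPM, a log2 ratio of 0.80 (0.65 to 0.94). Msr1 in DU101 Kupffer cells lay just under the size limit on the other side, at 167 against 250 CPM and a log2 ratio of -0.58. In Y-linked Kupffer cells of DU101 and control Msr1 was at 160 against 333 CPM and Abca1 at 346 against 607 CPM. Apoe was at 25960 against 39691 CPM there, and each of these genes was lower by size in DU101. Marco was higher by size there, at 213 against 28.2 CPM from 147 and 16 UMIs. So was Timd4, at 37.6 against 10.6 CPM from 26 and 6 UMIs. Whether the DU101 cell with 77 Marco UMIs was among the Y-linked cells was not examined. Control Xist cells had 217 CPM of Msr1, 381 CPM of Abca1 and 20951 CPM of Apoe. They had 20.1 CPM of Marco and 23.7 CPM of Timd4. Both kinds of control cell thus lay below the 98.9 CPM of Marco and 43.3 CPM of Timd4 in the whole control gate.

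In the macrophage gate 8 of the 10 genes had enough UMIs. Their log2 ratios for DU101 ran between -0.42 for Cd36 and 0.31 for Marco, and none was called. For DU102 only Marco was called lower, on 9 UMIs against 37 in control, or 2.17 against 4.79 CPM, with a log2 ratio of -1.14 (-2.38 to -0.06). This call held in 6 of 15 alternatives: 19 of the 37 control UMIs lay in the cluster that holds most classical monocytes, and within the main macrophage cluster Marco was at 2.66 CPM in DU102 against 2.75 CPM in control. The background of lower calls for DU102 macrophages was 2.57%. In the shared cluster that held most macrophages, an alternative added after the data were seen, 3 genes passed the size rule as lower in DU101 although none did over the whole gate: Cd36 at -0.71, Lpl at -0.60 and Msr1 at -0.59 on the log2 scale against control. Marco passed it there as higher in DU101, at 7.34 against 2.75 CPM. Cd36 was at 52.5 CPM in DU101, 71.1 CPM in DU102 and 85.6 CPM in control. Lpl was at 218 CPM in DU101, 365 CPM in DU102 and 329 CPM in control, and Axl at 161, 262 and 214 CPM. Msr1 stood there at 101 CPM in DU101, 189 CPM in DU102 and 152 CPM in control.

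Marco was also called in patrolling monocytes, and again a few cells carried it. DU101 had 57 UMIs, DU102 5 and control 35, or 23.0, 1.92 and 12.0 CPM. The log2 ratio to control was 0.94 (0.31 to 1.59) for DU101 and -2.64 (-4.35 to -1.28) for DU102, where the background was 3.31% of genes higher for DU101 and 2.56% lower for DU102. Of the 57 DU101 UMIs, 37 lay in 1 cell with 5 patrolling monocyte markers and no Kupffer marker. Without the richest cell of each library DU101 stood at 8.10 CPM, DU102 at 1.16 CPM and control at 9.95 CPM, so the sign of the DU101 ratio turned to -0.30. The lower value of DU102 held without it, at -3.11. Only 14 DU101, 4 DU102 and 13 control patrolling monocytes had any Marco UMI.

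**Figure D5:**
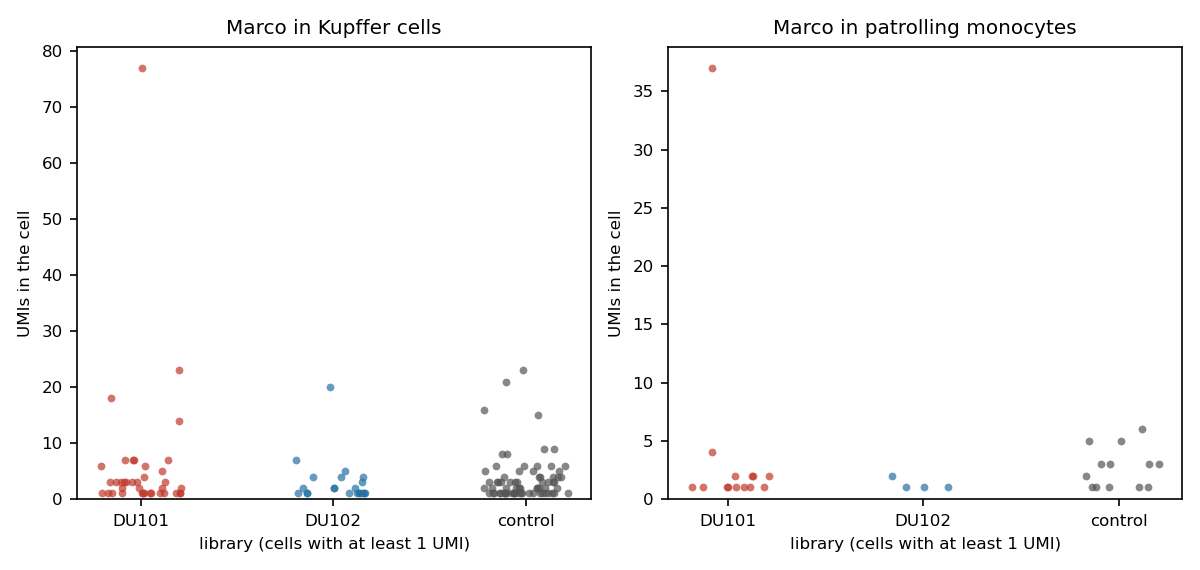
Marco UMIs per cell in Kupffer cells and patrolling monocytes with at least 1 Marco UMI, by library, each point a cell. A DU101 Kupffer cell with 77 UMIs and a DU101 patrolling monocyte with 37 UMIs stand far above the other cells of their library.

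Dendritic and endothelial cells gave 1 call each. Axl in cDC2, the dendritic cells that prime helper T cells, was at 15.9 CPM in DU101, 40.2 CPM in DU102 and 34.0 CPM in control, from 34, 39 and 109 UMIs. Its log2 ratio for DU101 was -1.10 (-1.70 to -0.53), in a class with a background of 8.41% of genes lower. Msr1 in endothelial cells was at 98.9 CPM in DU101, 164 CPM in DU102 and 151 CPM in control, with a log2 ratio of -0.61 (-0.96 to -0.27) for DU101, against a background of 4.47% lower. This Msr1 call was lost with mitochondrial limits of 5% and 20% and with doublets kept. Cd36, which was higher in endothelial cells than in any other class described here, differed there from control by 0.23 on the log2 scale in DU101. In DU102 it differed by -0.16, and both were under the size limit. Neither class held enough Y-linked control cells for a value without the mix of sexes. In cDC1 3 of the 10 genes had enough UMIs in either comparison, and in plasmacytoid dendritic cells, the interferon producers, 2 for DU101 and 1 for DU102; none of these was called.

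Set against each other, DU101 and DU102 were compared without the mixed control, since both are nearly free of Xist. The comparison was added after seeing the data. Of 44 pairs counted, 4 were higher and 10 lower in DU101, with a median log2 ratio of -0.35, while the background was 3.82% higher and 7.01% lower. In patrolling monocytes the log2 ratio of DU101 over DU102 was -1.94 for Lpl, -1.38 for Axl, -1.07 for Msr1 and -0.93 for Abca1. Lpl, Axl and Msr1 kept their call in all 15 alternatives that were run. Lower in DU101 were also Axl, Lpl and Abca1 in classical monocytes, at -0.65, -0.92 and -0.75, Lpl in Kupffer cells at -0.64, Axl in cDC2 at -1.34 and Msr1 in endothelial cells at -0.73. In classical monocytes Axl kept its call in 12, Lpl in 13 and Abca1 in 10 of the 15 alternatives. Axl and Abca1 there lost it with joint clusters. Lpl in Kupffer cells kept it in 12 and lost it without the richest cell. The cDC2 and endothelial calls were each kept in 13. The 4 higher ratios were Marco in Kupffer cells, macrophages and patrolling monocytes, at 1.27, 1.45 and 3.58, and Timd4 in Kupffer cells at 1.08. Marco in macrophages rested on 30 against 9 UMIs and kept its call in 11 of the 15 alternatives. The higher calls of Marco and Timd4 in Kupffer cells were lost with joint clusters, with cells weighted alike and within the main Kupffer cluster, where the ratios were 0.44 and 0.37. Without the richest cell of each library the Marco call in patrolling monocytes was lost. Too few UMIs were then left for the size rule, although Marco was still at 8.10 CPM in DU101 against 1.16 CPM in DU102.

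Other genes of the same processes were counted from lists of 16 scavenger receptors, 21 efferocytosis genes and 24 genes of lipid uptake and efflux that hold none of the 10. Of 62 pairs of other scavenger receptors and classes, 5 were higher and 9 lower in DU101, and of 58 pairs 2 were higher and 4 lower in DU102. Over all genes the shares were 4.0% higher and 5.89% lower in DU101, and 3.94% higher and 3.15% lower in DU102, and the 2 of 58 was near its share. Stab1, a scavenger receptor for hyaluronan and aged proteins, was lower in DU101 Kupffer cells, at 42.3 CPM against 141 CPM in control, and in DU102 Kupffer cells at 90.2 CPM. It was also lower in classical monocytes, at 4.73 CPM in DU101 and 10.1 CPM in DU102 against 15.2 CPM in control. Olr1, the receptor for oxidised LDL, was higher in DU101 macrophages, at 9.52 against 2.59 CPM in control. In patrolling monocytes Olr1 was at 18.2 CPM in DU101 and 20.4 CPM in DU102, against 10.6 CPM in control. The other genes at either end of a class were Olr1 in Kupffer cells (higher), Stab1 in macrophages, Colec12 in patrolling monocytes and Lrp1 in cDC2 (lower) for DU101. For DU102 they were Colec12 in macrophages and patrolling monocytes (lower) and Mrc1 in cDC2 (higher).

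Of 107 pairs of other efferocytosis genes and classes, 9 were higher and 13 lower in DU101, and of 106 pairs 7 were higher and 3 lower in DU102. Against the same shares of all genes, the 3 of 106 lay below 3.15%. Thbs1, thrombospondin, which bridges dying cells to CD36, was higher in DU101 Kupffer cells, at 353 against 77.5 CPM in control, and lower in DU101 classical monocytes, at 330 against 731 CPM. Anxa1, annexin A1, was higher in patrolling monocytes of both treated libraries, at 249 CPM in DU101 and 237 CPM in DU102 against 106 CPM in control. Gas6, the bridging protein that binds AXL and MERTK, was higher in DU101 classical monocytes, at 4.63 against 0.846 CPM in control. Cd300lf, a receptor for lipids of dying cells, was lower in DU101 macrophages, at 98.9 against 215 CPM in control. Also at either end of a class in DU101 were Mfge8 in macrophages and Anxa1 in endothelial cells (higher), and Cd300lf in Kupffer cells and patrolling monocytes, Pros1 in cDC2 and Itgb3 in endothelial cells (lower). In DU102 these were Anxa1 in classical monocytes, Dock1 in cDC2, Cd300lf in plasmacytoid dendritic cells and Thbs1 in endothelial cells (higher), and Havcr2 in Kupffer cells, Thbs1 in classical monocytes and Jmjd6 in endothelial cells (lower).

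Of 158 pairs of other lipid uptake and efflux genes, 11 were higher and 19 lower in DU101, and of 156 pairs 6 were higher and 8 lower in DU102. Against the same shares of all genes, the 6 of 156 was near 3.94%. Nr1h3, the oxysterol receptor LXR alpha, was the most clearly lower of them in DU101 classical monocytes, at 8.96 against 20.4 CPM in control. Abcg1, a cholesterol exporter like ABCA1, was lower in DU101 patrolling monocytes, at 137 against 209 CPM. Fabp4, a fatty acid carrier, was lower in macrophages, at 190 CPM in DU101 and 247 CPM in DU102 against 388 CPM in control. It was higher in DU101 Kupffer cells, at 451 against 236 CPM, and in DU101 classical monocytes, at 48.0 against 14.6 CPM. Fabp5, another such carrier, was lower in DU102 Kupffer cells, at 934 against 1824 CPM in control. Also at either end of a class in DU101 were Ch25h in macrophages and Angptl4 in endothelial cells (higher), and Npc1 in Kupffer cells and cDC2, Fabp4 in cDC1 and Abcg1 in plasmacytoid dendritic cells (lower). In DU102 these were Scd2 in macrophages and patrolling monocytes, Fabp4 in plasmacytoid dendritic cells and Apoc2 in endothelial cells (higher), and Pltp in classical monocytes, Apoc1 in patrolling monocytes, Fabp4 in cDC1, Fabp5 in cDC2 and Abcg1 in plasmacytoid dendritic cells (lower). In DU101 classical monocytes, where 4 of the 10 members were lower, the median log2 ratio was -0.28 for the scavenger list, -0.20 for the efferocytosis list and -0.22 for the lipid list, against -0.02 for all genes. In DU102 classical monocytes these medians were 0.01, -0.11 and -0.05, against 0.02 for all genes.

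Across 35 points, each a class in a library, the 10 genes fell into patterns that followed the classes. Likeness was the Pearson correlation of log2(CPM + 1), given as a description, since points share libraries, depth and carried-over RNA. Among the 10, Apoe and Msr1 were most alike, with r = 0.93, followed by Mertk and Msr1 at 0.92. Apoe with Lpl, Axl with Lpl and Apoe with Mertk stood at 0.90, whereas Cd163 and Cd36 stood at 0.02. The genes most like Marco were Cd5l at 0.88, Apoc1 at 0.86 and Paqr9 at 0.86. Cd5l, and Fcna named below with Timd4, are markers that define the Kupffer gate. Their likeness to Kupffer cell genes was thus partly set by the gates and was not read as a result. Those most like Lpl were C3ar1, Itgb5 and Cndp2, all at 0.95, and those most like Mertk were Ccdc152 and Itga9 at 0.95 and Vcam1 at 0.94. Abca1 was most like Selenop at 0.89, Apoe at 0.89 and Mertk at 0.88. Msr1 stood closest to Dmxl2 at 0.96, Cd93 at 0.94 and C5ar2 at 0.94, Apoe to Gpx3 at 0.94 and Msr1 at 0.93, and Axl to Abhd12 at 0.92, Lpl at 0.90 and Sgpl1 at 0.90. Cd36 was closest to Pde8a at 0.87, Trim41 at 0.86 and Fabp4 at 0.86, Timd4 to Rab38 at 0.84, Fcna at 0.81 and C6 at 0.79, and Cd163 to Igsf8 at 0.81, Slc48a1 at 0.81 and Cfp at 0.79.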

How the data were processed

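Live CD45-positive cells of 3 mouse liver tumour libraries were profiled with the 10x Genomics 3′ v3 kit, per the labels' protocols. The deposited values are raw UMI counts per gene and cell. The file headers name Cell Ranger 6.0.0, whereas the submitters' processing notes name Cell Ranger 2.1.1 and the mm10 build. The deposited counts were used unchanged. The members and gene lists, and the gates, were chosen with earlier results of these data known.

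Cells were kept from 200 detected genes upward and up to 10% mitochondrial UMIs, and doublets called by Scrublet (scanpy 1.11.5, expected rate 0.008 per 1000 cells) were removed, 458 in DU101, 249 in DU102 and 265 in control. Among 19 classes, a cell joined the one with the largest share of its markers detected, with a minimum of 3 markers. A macrophage with at least 2 Kupffer markers became a Kupffer cell, and cells with ties, or of another class with 3 or more Kupffer markers, were left out. Leiden clusters of the joined libraries served as an alternative (igraph 0.11.9, 2000 variable genes, 30 components). CPM, exact Poisson and Clopper-Pearson 95% intervals were computed with Python 3.11.15, numpy 2.4.6, scipy 1.17.1 and pandas 2.3.3, and a count of 0 was taken at a floor of 3 in ratios. TMM factors came from edgeR 4.0.16 in R 4.3.3, as an alternative. The counting rule was tested on simulated data. Genes named are all 10 members, for each list and class the genes with the highest and lowest ratio to control past the size rule (ordered by the more cautious interval bound), and for each member the 3 genes most like it that are not numbered gene models. 1 of these, for Apoe, is not reported here. PCR and capture make UMIs of a cell dependent, so intervals cover counting error only.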

Additional observations from a re-analysis of the deposited data

How the results depend on the processing

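No paired analysis was possible because each group has only 1 library. Of the pairs called between DU101 and control, Mertk in classical and Lpl in patrolling monocytes kept their call in all 15 alternatives. The 2 higher pairs became 1 with a 20% mitochondrial limit, with cells weighted alike and with a minimum of 100 UMIs. They became 0 with a 2-fold limit or without the richest cell. Neither of the 2 was kept with joint clusters or with cells weighted alike, where other pairs were called. After the mean UMIs of T, B and NK cells were subtracted, 4 pairs were higher. That step added Abca1 and Apoe in cDC2 for both DU101 and DU102. There almost nothing was left in a library, or less than 0, which was set to the floor of 3. Intervals were moved to the new ratio without being widened, so the added cDC2 pairs were not read as higher. The 9 lower pairs became 5 at 2-fold. With joint clusters 5 of the 9 were kept among 10 lower pairs. With Y-linked cells only 6 were kept among 12, and in the main cluster of each gate 6 among 11. Axl in cDC2 had no value with joint clusters or with Y-linked cells, and Msr1 in endothelial cells had none with Y-linked cells. For DU102 over control the 0 higher pairs became 2 with a 5% mitochondrial limit, with classes from joint clusters and with cells weighted alike, 1 with Y-linked cells only and with no filter on low counts, 3 after subtraction and 3 in the main cluster of each gate. Its 4 lower pairs became 2 with cells weighted alike and with a minimum of 100 UMIs, and 1 of the 4 was kept with Y-linked cells only. The pairs lost with Y-linked cells had too few UMIs there for the size rule. Of these, Marco in patrolling monocytes was at 1.74 CPM in DU102 against 28.8 CPM in control. Marco in macrophages was at 1.68 against 2.69 CPM, and Timd4 in Kupffer cells at 11.6 against 10.6 CPM. For DU101 over DU102 the 4 higher pairs became 2 with cells weighted alike and in the main clusters and 1 with a minimum of 100 UMIs, and the 10 lower became 4 at 2-fold. The log2 ratio turned sign for Axl in classical monocytes (0.14, DU101 over control) and Timd4 in Kupffer cells (0.14, DU102 over control) with Y-linked cells only. For Marco in patrolling monocytes (DU101 over control) it turned to -0.14 with joint clusters and to -0.30 without the richest cell. The log2 ratios moved by more than their interval most often with Y-linked cells only (64 moved, 54 did not), then within the main clusters (47 and 92) and with joint clusters (44 and 83). By Spearman's rho, 8 of the 10 members kept fewer than 2 of their 3 most alike genes. The cause was not tested for any of these. The alternatives without the richest cell and within the main cluster, and all of DU101 over DU102, were chosen after seeing the data.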
